A study of Rattus norvegicus with 40 samples.

Results

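The mRNAs of the mitochondrial ribosomal proteins were followed through 3 states of rat liver and a block of the kinase mTOR. Members were all transcript rows of the array whose only gene symbol began with Mrpl or Mrps and a digit, with the row of highest mean signal kept where a gene had several. This gave 68 genes from 72 of 15209 rows with 1 symbol, 41 named for the large and 27 for the small subunit, and each of the 68 passed the filter on low signal. Mitochondrial ribosomes translate the few messages of the mitochondrial genome, which encode core subunits of the respiratory chain. Their proteins are encoded in the nucleus, translated on cytosolic ribosomes and imported, so the mRNAs measured here are translated outside the organelle that uses the product. Some members descend from bacterial ribosomal proteins and others are found only in mitochondrial ribosomes.

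Liver RNA of Sprague Dawley rats was hybridised to 40 Affymetrix Rat Gene 1.0 ST arrays in 12 groups. Adults weighing 125 to 150 g either went without food for 48 h, received an injection and had food again for 3 h, starting 1 h after it (refed liver), or injected 1 h before partial hepatectomy and killed 24 h after it (regenerating liver). Fetuses were injected on gestation day 19 and delivered on day 20, after 24 h (fetal liver). The injection was rapamycin, at 250 µg per 100 g in adults and 50 µg per fetus, or its vehicle DMSO, and no group carried an altered gene. Polysomal RNA, which is mRNA carrying several cytosolic ribosomes, and total RNA were measured, with 3 arrays per group in adults and 4 in fetuses. Arrays of a group are labelled as biological replicates, but the labels also speak of pooled polysomes without saying what went into a pool, so p-values measure the spread between these arrays only. For 3 arrays titled as hepatectomy polysomal DMSO the labelled time point is that of refeeding, and the title was followed; their mean over 9 markers of dividing cells lay between 10.69 and 11.07, and that of the refed polysomal DMSO arrays between 6.02 and 6.27.

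Values are log2 of array intensity. A difference of 1.00 is a doubling, and levels of different genes are not comparable because each gene has its own probes. The mean over 8 hepatocyte markers was 13.08 to 14.05 in every array, as the tissue label says. In whole liver, fewer cells of a type and less RNA per cell cannot be told apart. Some arrays stood apart for these mRNAs. The members' mean in refed total DMSO RNA was 9.56, 10.06 and 9.49 in replicates 1 to 3, while the mean over all rows tested was 9.17, 9.23 and 9.14. Replicate 2 therefore stood above replicates 1 and 3 for the members as a group. The members' mean was 9.84 to 10.10 in regenerating and 9.82 to 10.08 in fetal total DMSO RNA. Replicate 2 lay within these ranges and replicates 1 and 3 below them. Whether replicate 2 was high or the others low cannot be told from 3 arrays. In refed total rapamycin RNA the members' mean was 9.89, 10.24 and 9.94, and replicate 2 was again the highest. For the limma comparisons that use the DMSO array, the members' counts and medians are given with and without it. Splits by subunit or homologue, counts over models, correlations, counts of groups that do not overlap and values of other gene lists are given only with it. In fetal total rapamycin RNA the members' mean was 9.45, 9.83, 10.08 and 10.09, the lowest belonging to replicate 1.

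Over the 12 groups the mean of the members was highest in polysomal RNA of the regenerating and refed DMSO livers, at 10.78 and 10.74, and lowest in total RNA of the refed DMSO livers, at 9.70. All 6 polysomal groups lay above all 6 total RNA groups, with the lowest polysomal group mean at 10.28 and the highest total RNA group mean at 10.02. The 5 members with the widest range of group means were Mrps16 (2.20), Mrpl36 (2.19), Mrps12 (2.03), Mrps18c (2.03) and Mrps33 (1.96), and each was lowest in refed total DMSO RNA. The narrowest ranges were those of Mrpl51 (0.71), Mrpl44 (0.69) and Mrpl1 (0.58).

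**Figure D1:**
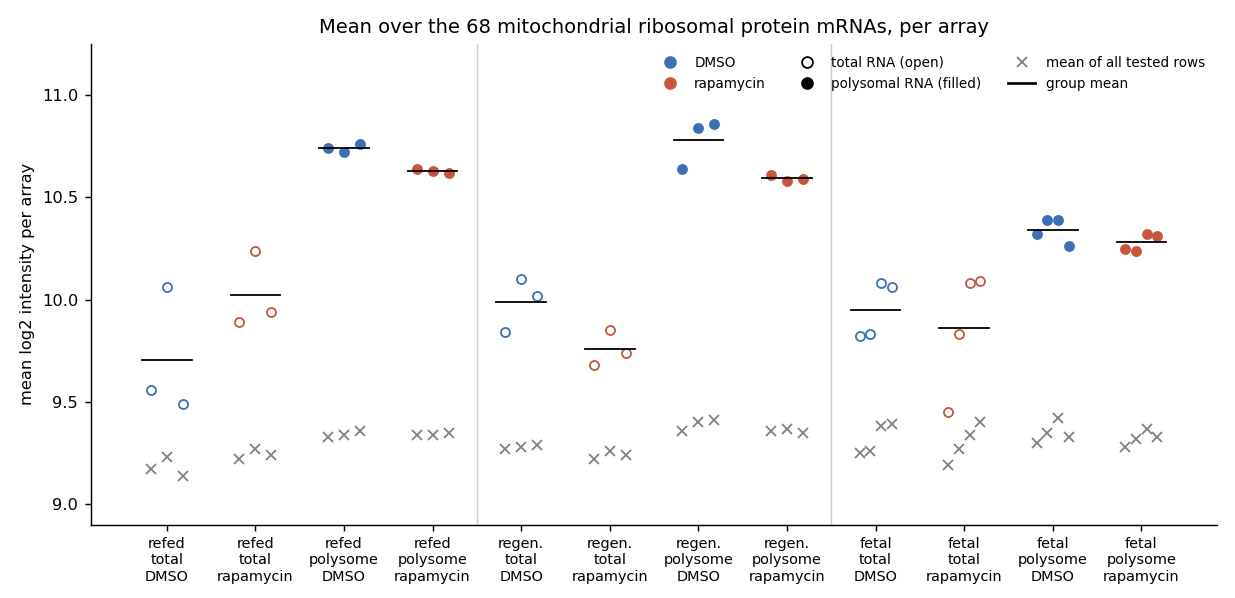
Mean log2 intensity over the 68 members on each of the 40 arrays (y axis) by group (x axis); open circles are total RNA, filled circles polysomal RNA, blue DMSO, red rapamycin, black lines group means, and grey crosses the mean over all rows tested on the same array. The polysomal groups lie above the total RNA groups, and refed total DMSO replicate 2 sits at 10.06 against 9.56 and 9.49.

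The first comparison asked how strongly these mRNAs were represented in polysomes relative to total RNA after DMSO. In refed liver 64 of the 68 were higher in polysomal RNA and 0 lower at an adjusted p under 0.05 in limma, where 24.7% of all rows tested passed, 19.5% higher and 5.14% lower. The members' median difference was 1.00, against 0.10 over all rows tested. By symbol, 40 of 41 large-subunit and 24 of 27 small-subunit members passed, with medians of 1.06 and 0.93. With Mrps18a and Mrps30, which sit in the large subunit despite their symbols, counted there, 42 of 43 and 22 of 25 passed, with medians of 1.04 and 0.93. Members with a bacterial homologue (38 of 40 passed, median 1.07) and those found only in mitochondrial ribosomes (26 of 28, median 0.90) are given side by side, and the difference between the lists was not tested.

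Mrps16, a small-subunit protein with a bacterial homologue, read 11.34, 11.34 and 11.15 in refed polysomal RNA and 9.15, 9.93 and 9.17 in refed total RNA. The lowest polysomal array was above the highest total array, and the difference was 1.86 ± 0.206 (SE, n = 3 and 3; adjusted p = 0.000482), or 3.63-fold. Mrps18c, one of 3 mitochondrial relatives of a single bacterial protein, read 11.89, 11.86 and 11.81 against 10.13, 10.41 and 9.59. Its groups were also apart, by 1.81 ± 0.19 (adjusted p = 0.000417). The largest difference was that of Mrpl36, whose bacterial homologue is a small protein of the large subunit: 10.72, 10.68 and 10.42 in polysomes and 8.41, 9.45 and 7.81 in total RNA, a difference of 2.05 ± 0.334 (adjusted p = 0.00213). Its total RNA arrays spread over more than 1 log2 unit, and the highest of them was still below every polysomal array. With Mrps18c and Mrps16, the 8 smallest p-values were those of Mrpl22 (1.69), whose bacterial homologue lines the tunnel through which a new protein leaves the ribosome, Mrpl42 (0.77), Mrpl32 (1.54), Mrpl40 (1.28), Mrpl41 (1.72) and Mrpl34 (1.57). The 4 members that did not pass were Mrps28 (0.27), Mrps2 (0.34), Mrps27 (0.37) and Mrpl47 (0.80), with adjusted p of 0.399, 0.0831, 0.143 and 0.0572. Without refed total DMSO replicate 2 the count was 65 and the median 1.18, and over all 6 arrays left out in turn it was 57 to 65.

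In regenerating liver 62 of 68 were higher in polysomal RNA and 0 lower, where 43.8% of all rows passed and 28.8% were higher, and the members' median was 0.77 against 0.09. The smallest p-values were those of Mrps16 (1.68 ± 0.118, adjusted p = 3.2e-06), Mrpl34 (1.47), Mrpl41 (1.39), Mrps21 (0.73), Mrpl36 (1.52), Mrpl40 (1.29), Mrpl14 (1.21) and Mrps18c (1.25). Mrps16 read 11.52, 11.56 and 11.75 in polysomes and 9.74, 10.22 and 9.84 in total RNA, with no overlap. The 6 that did not pass were Mrps27 (0.03, 95% interval -0.24 to 0.30), Mrps22 (0.16), Mrps15 (0.23), Mrps31 (0.24), Mrpl1 (0.29) and Mrps30 (0.31). Mrps27 is the one member that was not higher in polysomes in any of the 3 models: in regenerating liver it read 10.05, 10.39 and 10.09 in polysomes and 9.93, 10.31 and 10.19 in total RNA, and the groups overlapped.

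In fetal liver 27 members were higher in polysomal RNA and 1 lower, where 14.5% of rows passed, 8.10% higher and 6.38% lower, and the members' median was 0.42 against 0.04. With 1 array left out the count of members called was 18 to 25, the lowest of 18 without fetal polysomal DMSO replicate 1. Mrps16 again had the smallest p: 10.83, 10.64, 10.80 and 10.65 in polysomes, 9.69, 9.11, 9.84 and 9.72 in total RNA, a difference of 1.14 ± 0.198 (adjusted p = 0.00198). The groups did not overlap. Mrpl34 (0.84), Mrpl42 (0.52), Mrps9 (0.82), Mrpl27 (0.80), Mrpl14 (0.76), Mrps18c (0.68) and Mrpl13 (0.82) followed. The member that was lower was Mrps2, whose bacterial homologue sits at the edge of the small subunit where messages leave: it read 10.41, 10.84, 10.86 and 10.57 in polysomes and 11.22, 11.16, 11.19 and 10.82 in total RNA. The highest polysomal array (10.86) was above the lowest total array (10.82), so the groups overlapped, and the difference was -0.43 ± 0.133 (adjusted p = 0.0422). In each of the 4 fetal pairs of the same number it was lower in polysomes.

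**Figure D2:**
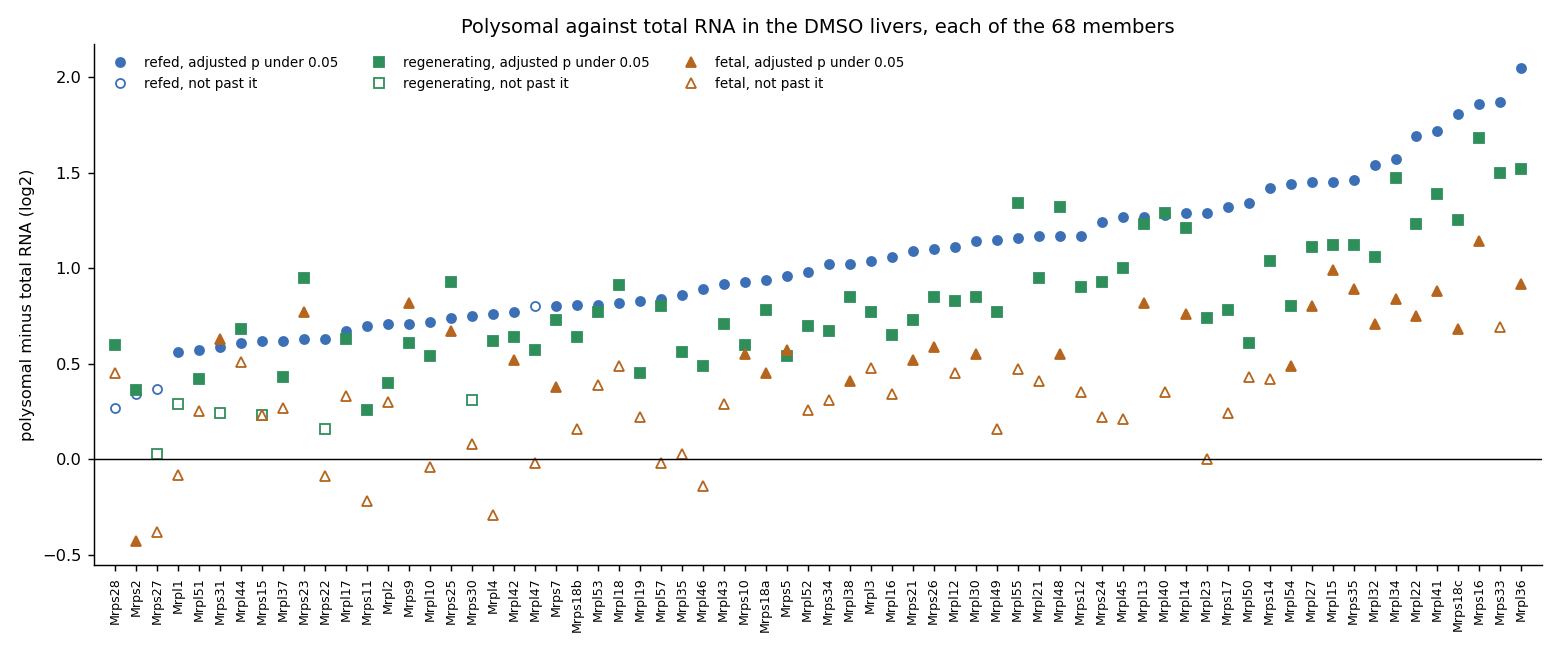
Polysomal minus total RNA after DMSO (log2, y axis) for each of the 68 members (x axis, ordered by the refed value); circles are refed, squares regenerating and triangles fetal liver, filled where the adjusted p was under 0.05. Refed values run from 0.27 to 2.05, regenerating from 0.03 to 1.68 and fetal from -0.43 to 1.14, with Mrps2 and Mrps27 at the low end and Mrps16, Mrps33 and Mrpl36 at the high end.

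Of the 68 members, 26 were higher in polysomes in all 3 models, 34 in 2, 7 in 1 and 1 in none. Those higher in all 3 were 38.2% of members, against 4.27% of all rows tested, and those higher in none 1.47%, against 66.7%. The models share probes but no arrays. Across the 68 members Pearson's r of the excess was 0.84 between refed and regenerating, 0.62 between refed and fetal, and 0.72 between regenerating and fetal liver, and Spearman's rho 0.82, 0.54 and 0.67. The polysomal excess itself was compared across models in a fit of all arrays. Between regenerating and refed liver 0 members differed (3 at an unadjusted p under 0.05; 0.00% of all rows), where 2.51% of all rows had an unadjusted p under 0.05. Of the 68 values 59 were negative, against 59.5% of all rows, with a median of -0.27 against -0.05. Those with the smallest p were Mrps18c (-0.56), Mrpl54 (-0.64) and Mrps11 (-0.44). Without refed total DMSO replicate 2, 1 member passed and the median was -0.49, and without replicate 3 it was -0.15.

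Between fetal and regenerating liver 5 members had a smaller polysomal excess in the fetus and 0 a larger one, where 2.83% of all rows differed, 1.19% with a larger and 1.64% with a smaller excess. The members' median was -0.39 against -0.07. These 5 were Mrpl40 (-0.94 ± 0.235), Mrpl4 (-0.91 ± 0.21), Mrpl55 (-0.87 ± 0.236), Mrps2 (-0.79 ± 0.174) and Mrpl48 (-0.77 ± 0.195), with adjusted p from 0.013 to 0.0382; Mrpl55, which the naming rule would leave out, was named after its values were seen. Mrpl4, whose bacterial homologue reaches into the exit tunnel, read 11.30, 11.78, 11.84 and 11.33 in fetal polysomes and 11.85, 11.84, 11.92 and 11.78 in fetal total RNA. In regenerating liver the polysomal values were 12.18, 12.48 and 12.62, and the total values had a mean of 11.81 ± 0.31 (SD, n = 3). Its polysomal arrays were all above the total arrays after hepatectomy. In the fetus the groups overlapped. Within each of the 4 pairs of the same number the polysomal value was the lower one, with differences of -0.55, -0.06, -0.08 and -0.45. Mrpl40 has a second, dimmer row that gave -0.47 (adjusted p = 0.232), so its 2 rows disagree on this call. With each liver as a block the count was 15 members, and it was 3 with no filter or with only the groups compared in the fit. Leaving out 1 of the 14 arrays gave 1 to 7 members: 1 without regenerating polysomal DMSO replicate 3 or total DMSO replicate 1, 2 without regenerating polysomal replicate 2 or fetal polysomal or total replicate 4, and 3 without fetal total or regenerating total replicate 3. The fetal libraries also differ in cell types: the mean over 9 erythroid markers on the array (of 13 listed) was 11.84 to 12.85 in fetal DMSO arrays and 8.12 to 8.49 in regenerating DMSO arrays, and their part in the result was not tested.

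The 3 relatives of bacterial S18 share an ancestor and sit at different places in the mitochondrial ribosome; Mrps18a, despite its symbol, belongs to the large subunit. In refed liver the polysomal excess was 1.81 ± 0.19 for Mrps18c, 0.94 ± 0.153 for Mrps18a and 0.81 ± 0.131 for Mrps18b, and all 3 passed. In regenerating liver it was 1.25, 0.78 and 0.64, again all past the threshold. In fetal liver Mrps18c (0.68, adjusted p = 0.00348) and Mrps18a (0.45, adjusted p = 0.0223) passed and Mrps18b did not (0.16, adjusted p = 0.58). Mrps18c had the largest value in each model, and the difference between the genes was not tested. Mrpl12, a stalk protein also known to bind the mitochondrial RNA polymerase, had an excess of 1.11, 0.83 and 0.45, past the threshold in both adult models. Mrps30, which despite its symbol sits in the large subunit, had 0.75, 0.31 and 0.08 and passed in refed liver. Mrps28, a small-subunit protein, had 0.27, 0.60 and 0.45 and passed in regenerating liver; in refed liver its total RNA read 8.41, 7.52 and 8.40, with replicate 2 the lowest, where the members' mean was highest.
Promoter bases of Mrps18a and Mrps18c are shown because both passed in all 3 models and share an ancestor. Each run is the 150 bases before the annotated start, from RefSeq on GRCr8, written 5′ to 3′ on the gene's strand, with matches to CCGGAAG or its reverse complement CTTCCGG in capitals. The positions are chr9:22367381-22367530 (minus strand) for Mrps18a and chr14:9122907-9123056 (minus strand) for Mrps18c.
Mrps18a: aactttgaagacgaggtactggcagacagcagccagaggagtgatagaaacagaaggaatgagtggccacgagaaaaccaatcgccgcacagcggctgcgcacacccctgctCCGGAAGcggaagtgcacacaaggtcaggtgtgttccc
Mrps18c: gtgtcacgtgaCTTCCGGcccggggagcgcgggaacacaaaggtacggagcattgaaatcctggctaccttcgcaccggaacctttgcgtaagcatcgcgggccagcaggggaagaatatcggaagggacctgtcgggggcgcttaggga
Both hold 1 match to the ETS-type motif in this window, in opposite orientations. A match is a description of the letters and not a measured site.

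Other genes of mitochondrial translation gave a mixed picture in the same comparison. Of 5 mitochondrial ribosome proteins with other names, 3 were higher in polysomes in refed and 3 in regenerating liver: Chchd1 (1.66 and 1.36), Gadd45gip1 (1.15 and 1.00) and Aurkaip1 (0.80 and 0.65). Of 20 assembly factors tested, 16 were higher in refed, 14 in regenerating and 5 in fetal liver. The smallest p-values in refed liver were those of Rpusd4 (0.82), Mterf4 (1.45) and Mtg1, a GTPase of late assembly (1.03). Of 8 translation factors 5, 4 and 1 were higher; Mrrf, the recycling factor, had the smallest p in both adult models, at 0.71 in refed and 0.53 in regenerating liver. Of 11 mitochondrial tRNA synthetases 1 was higher in refed liver (Yars2, 0.72), none higher and 1 lower in regenerating liver (Aars2, -0.40), and none past the threshold in fetal liver. The medians of the synthetases were 0.16, 0.06 and 0.07. Among 18 genes of mitochondrial transcription and RNA handling, 7 were higher and 2 lower in refed liver, 10 and 2 in regenerating liver, and 5 and 0 in fetal liver. Slirp, an RNA-binding protein of mitochondria, was higher in adults (1.48 and 0.98), and its partner Lrpprc was lower in regenerating liver (-0.88). Cytosolic ribosomal proteins, 61 tested, had medians of 0.78, 0.40 and 0.08 in refed, regenerating and fetal liver, with 48, 44 and 5 higher and 0, 2 and 8 lower, among them Rpl22 (1.34 and 1.24 in adults) and Rps14 (1.49, 1.32 and 0.82). The members' medians in the same livers were 1.00, 0.77 and 0.42.

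The study's main contrast was rapamycin against DMSO. In regenerating liver rapamycin lowered 6 members in polysomal RNA and 9 in total RNA, and raised none. Among all rows tested 6.35% passed in polysomal RNA, 4.10% lower and 2.26% higher, and 5.01% in total RNA, 3.54% lower and 1.47% higher. The members' median was -0.18 in polysomal and -0.23 in total RNA, against -0.01 over all rows in each. Of 68 values 57 and 60 were negative, against 52.4% and 52.8% of all rows. In polysomal RNA the groups did not overlap in 26 lower members and 1 higher, 39.7% of members against 26.9% of all rows. In total RNA they did not in 24 lower members and 2 higher, 38.2% against 30.8%. All 6 members lowered in polysomes were among the 9 in total RNA. They were Mrps27, Mrps22, Mrps12 and Mrps25 of the small subunit and Mrpl38 and Mrpl45 of the large; the 3 others were Mrpl49, Mrpl46 and Mrps21. Of these 9, 7 are found only in mitochondrial ribosomes, and Mrps12 and Mrps21 have bacterial homologues.

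Mrps27, which in other mammals is described as a small-subunit protein with an RNA-binding repeat fold, read 9.93, 10.31 and 10.19 in total RNA after DMSO and 9.36, 9.29 and 9.20 after rapamycin. Every rapamycin array was below every DMSO array, and the difference was -0.86 ± 0.118 (adjusted p = 0.0123), 1.82-fold lower. In polysomes it read 10.05, 10.39 and 10.09 after DMSO and 9.62, 9.59 and 9.61 after rapamycin, a difference of -0.56 ± 0.118 (adjusted p = 0.0261), again without overlap. Mrps22, a small-subunit protein found only in mitochondria, read 10.41, 10.84 and 10.71 in polysomes and fell to 9.93, 9.99 and 9.85, by -0.73 ± 0.157 (adjusted p = 0.0285). In total RNA it went from 10.21, 10.75 and 10.52 to 9.65, 9.99 and 9.56, by -0.76 ± 0.157 (adjusted p = 0.0258). In both fractions the groups were apart. Mrpl45, a large-subunit protein at the exit of the tunnel that faces the inner membrane, read 11.10, 11.32 and 11.22 in DMSO polysomes and 10.61, 10.54 and 10.68 after rapamycin. Its differences were -0.60 in polysomal and -0.67 in total RNA. Mrps12, whose bacterial homologue lies at the decoding centre, read 12.18, 12.49 and 12.65 in DMSO polysomes and 11.81, 12.02 and 11.82 after rapamycin. It fell by 0.56 in polysomal and 0.52 in total RNA, without overlap in either.

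Mrpl38, a large-subunit protein found only in mitochondria, fell by 0.50 in polysomal and 0.65 in total RNA, and Mrps25 by 0.44 and 0.42. In total RNA alone Mrpl49 fell by 0.51, Mrpl46 by 0.38 and Mrps21 by 0.23; their polysomal values were -0.45 (adjusted p = 0.0559), -0.24 (adjusted p = 0.15) and -0.01. Of the members followed in every comparison, Mrps18a (-0.22 and -0.27), Mrps18b (-0.17 and -0.15), Mrps18c (-0.14 and -0.37), Mrpl12 (-0.27 and -0.29), Mrps30 (-0.12 and -0.18) and Mrps28 (-0.02 and -0.12) did not pass in polysomal or total RNA. The values of the 68 members in the 2 fractions came from different arrays, taken to be of the same livers, with a Pearson's r of 0.87 across members.

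**Figure D3:**
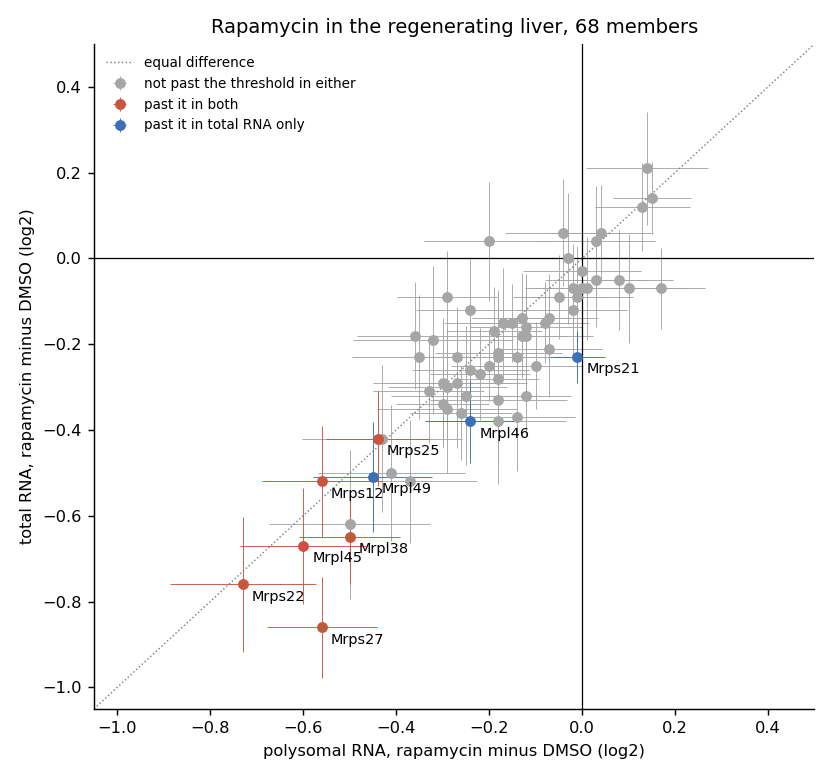
Rapamycin minus DMSO in regenerating liver (log2) in polysomal RNA (x axis) and total RNA (y axis) for the 68 members, with bars of 1 SE; red points passed an adjusted p of 0.05 in both fractions, blue points in total RNA. Mrps22 and Mrps27 lie lowest, at -0.73 and -0.56 in polysomes and -0.76 and -0.86 in total RNA.

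These calls rest on few arrays and on the fit. With all 40 arrays in 1 fit 2 members passed in polysomal and 3 in total RNA, with no filter on low signal 3 and 4, and with cyclic loess 4 in total RNA. With 1 array left out the count of lowered members in polysomes was 16 without DMSO replicate 1, 2 without rapamycin replicate 2 and 0 without any 1 of the other 4, DMSO replicates 2 and 3 and rapamycin replicates 1 and 3. In total RNA it was 17 without DMSO replicate 1, 8 without rapamycin replicate 2 and 0 without DMSO replicate 2 or 3 or rapamycin replicate 1 or 3. Calls over all rows dropped with them, to 57 of 10860 in polysomes without rapamycin replicate 3 and 4 in total RNA without rapamycin replicate 1. The direction held: over the 6 fits Mrps27 ran from -0.63 to -0.46 in polysomes and from -0.97 to -0.78 in total RNA, and Mrps22 from -0.85 to -0.63 and from -0.90 to -0.63, with adjusted p up to 0.107. Markers of dividing cells moved with treatment in the same livers. The mean of 9 such markers on the array, of 10 listed, was 10.69 to 11.07 in DMSO polysomes and 8.72 to 9.97 after rapamycin, and 10.38 to 11.03 and 8.37 to 9.75 in total RNA. Endothelial markers moved the other way, with 3 of 6 higher after rapamycin in each fraction. Other marker means were also higher after rapamycin without overlap: 7 stellate markers in total RNA (9.34 to 9.58 after DMSO, 9.73 to 9.81 after rapamycin), 3 bile duct markers in total RNA (7.37 to 7.49 and 7.69 to 7.80), and 7 macrophage (9.57 to 10.15 and 10.23 to 10.34) and 2 lymphocyte markers (8.95 to 9.22 and 9.29 to 9.53) in polysomal RNA. Their part in the members' result was not tested.

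**Figure D4:**
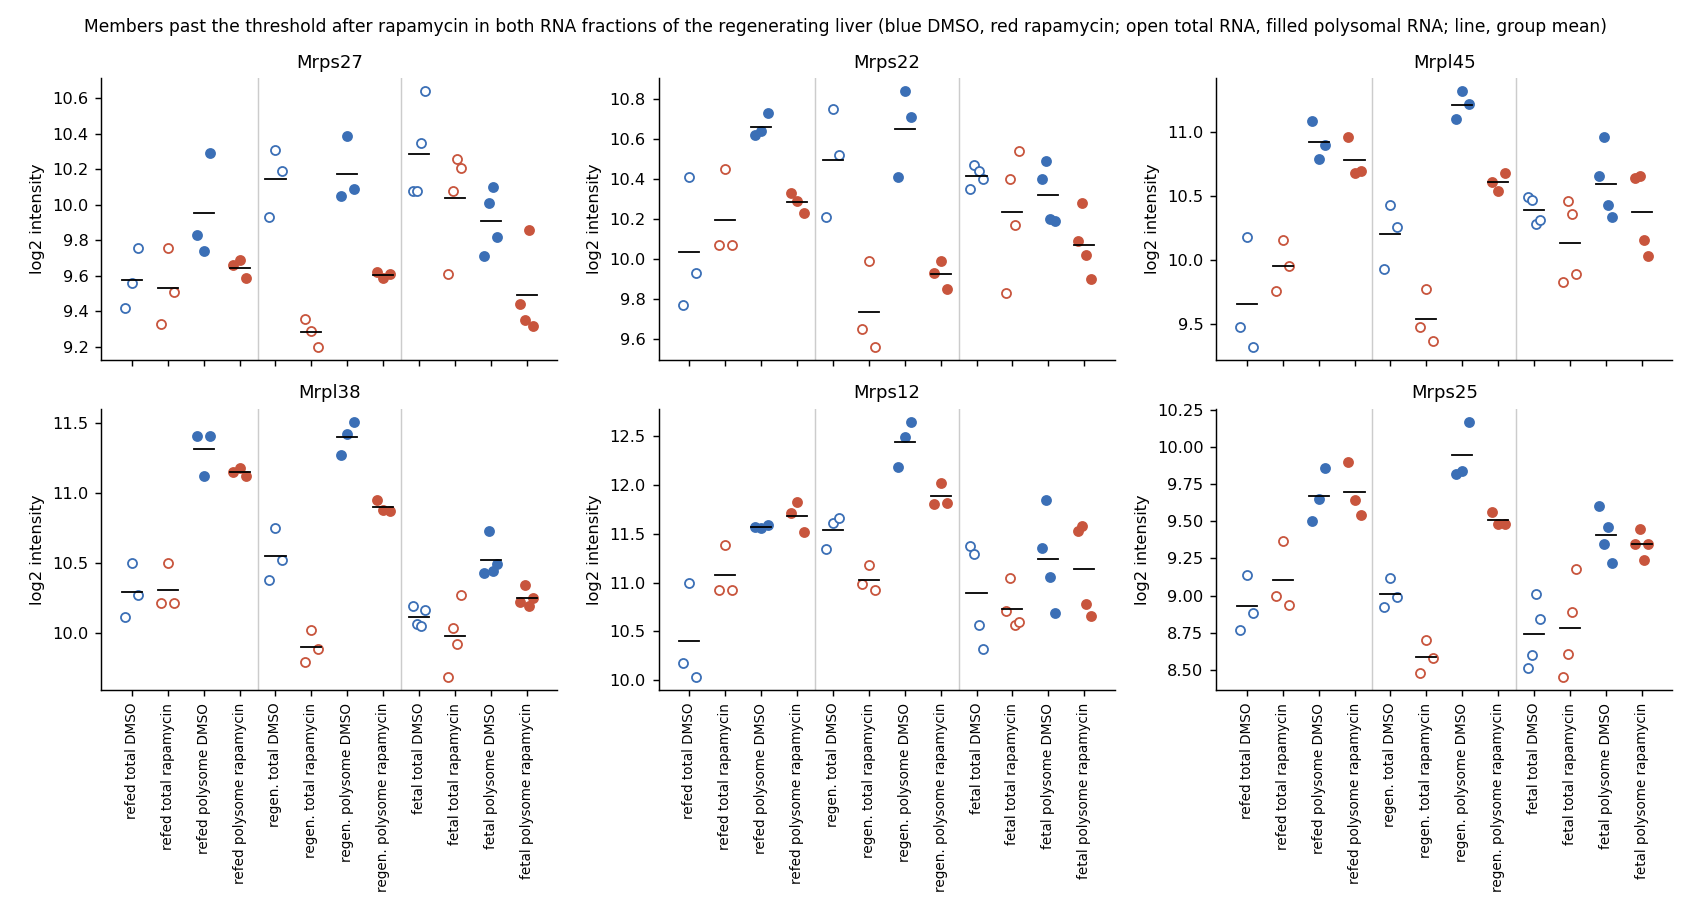
Log2 intensity (y axis) on every array in the 12 groups (x axis) for the 6 members lowered by rapamycin in both fractions of regenerating liver; open circles are total RNA, filled circles polysomal RNA, blue DMSO, red rapamycin, black lines group means. In regenerating liver the red points lie below the blue ones in each fraction for all 6 members, and in refed total RNA the 2 treatments overlap for each of them. In refed polysomal RNA Mrps22 (-0.38) and Mrps27 (-0.31) were lower without overlap, and in fetal polysomal RNA Mrpl38 (-0.27) was. None of these passed the threshold, and the rest of the 6 overlapped there.

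The effect of rapamycin on polysomal RNA relative to total RNA was tested as an interaction. In regenerating liver 0 members passed, where 0.00% of all rows passed, and the median was 0.05. An unadjusted p under 0.05 was reached by 1 member (1.47%), against 1.45% of all rows. The smallest p-values were those of Mrps21 (0.23), Mrps27 (0.30) and Mrpl54 (0.23). Cytosolic ribosomal proteins stood at -0.37 in polysomal and -0.13 in total RNA (medians of 61), with 23 lowered in polysomes and 0 in total RNA. Their interaction median was -0.22. In the interaction test 0 of the 61 passed, and 17 had an unadjusted p under 0.05, against 1.45% of all rows. Around the members, 1 of 11 tRNA synthetases fell in each fraction (Yars2, -0.47 and -0.67). Of 20 assembly factors Mterf3 fell in polysomes (-0.54), and 3 fell in total RNA: Fastkd2 (-0.82), Mterf3 (-0.58) and Noa1 (-0.40). Of 18 transcription and RNA genes 3 fell in polysomes, Slirp (-0.44), Nrf1 (-0.46) and Trmt10c (-0.45), and 2 in total RNA, Slirp (-0.67) and Pnpt1 (-0.59). None of 8 translation factors and none of the 5 ribosome proteins with other names passed in either fraction by limma, with 3 smallest adjusted p among the translation factors of 0.0652, 0.103 and 0.124 in total RNA (Gfm1, Mtif2, Tufm).

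Mrps27 and Mrpl45 were among the 6 members that fell in both total and polysomal RNA, and their promoters are shown as examples. Both hold a motif match, and the promoters of Mrps22, Mrps12, Mrps25 and Mrpl38 are not shown. Matches were not counted over the 6 lowered members, and a link between motifs and the response to rapamycin was not tested. Each run is again 150 bases before the start from RefSeq on GRCr8, 5′ to 3′, at chr2:32474054-32474203 (plus strand) for Mrps27 and chr10:82804889-82805038 (plus strand) for Mrpl45. Capitals mark CTTCCGG, the reverse complement of the ETS-type motif CCGGAAG, in Mrps27, and GCGCACGCGC in Mrpl45, a match on the minus strand to the NRF1 motif.
Mrps27: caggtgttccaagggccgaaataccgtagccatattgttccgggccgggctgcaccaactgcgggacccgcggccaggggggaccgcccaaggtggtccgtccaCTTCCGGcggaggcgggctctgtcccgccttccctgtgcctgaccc
Mrpl45: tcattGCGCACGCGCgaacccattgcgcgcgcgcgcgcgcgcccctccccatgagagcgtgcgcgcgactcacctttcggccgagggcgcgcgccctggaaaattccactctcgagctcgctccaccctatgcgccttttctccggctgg
NRF1 and the ETS factor GABP are known regulators of nuclear genes for mitochondria, and YY1 (motif AAGATGG) has been tied to ribosomal protein promoters. Promoter windows of 300 bases, 250 before and 50 after the start, were held for 54 of the 68 members, and both strands were searched. The NRF1 motif was in 9 of 54 (16.7%), against 9.5% of 8401 other genes tested on the array and 4.71% of all 27457 windows. The ETS motif was in 18 (33.3%, against 17% and 9.22%) and the YY1 motif in 15 (27.8%, against 8.13% and 7.3%). At least 1 of the 3 motifs was in 30 members (55.6%), against 29.7% and 18.9%. The ETS motif ends in AAG and the YY1 motif begins with it, so matches to them can overlap. Base composition differed: the median GC content was 56.2% in members, 60.7% in other tested genes and 52.3% in all windows. These shares are descriptions, and no test was made of them.

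In refed liver rapamycin changed 0 members in polysomal RNA and 0 in total RNA by limma, where 0.00% of all rows passed in either; 4 and 25 members (5.88% and 36.8%) had an unadjusted p under 0.05, against 4.84% and 16.9% of all rows. In polysomal RNA the median was -0.10 against 0.00 over all rows, and the groups did not overlap in 24 members that were lower and 5 that were higher, 42.6% of members, where 17.8% of all rows did not overlap. In total RNA the groups did not overlap in 5 members that were higher and 1 that was lower, 8.82% of members, against 13.7% of all rows. The smallest p-values were those of Mrps2 (-0.48, adjusted p = 0.705), Mrps18b (-0.39) and Mrpl49 (-0.52). Mrps2 read 12.18 ± 0.17 (SD, n = 3) after DMSO and 11.63, 11.75 and 11.73 after rapamycin in polysomes, and 11.74, 11.70 and 12.09 against 11.29, 11.46 and 11.45 in total RNA. Both pairs of groups were apart, with differences of -0.48 ± 0.131 and -0.44 ± 0.131.

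In refed total RNA the values ran the other way, with a median of 0.32 against 0.03 over all rows and 61 of 68 above 0, against 54.9% of all rows. The smallest p-values were those of Mrpl23 (1.05), Mrpl54 (0.87) and Mrps33 (0.87), each with an adjusted p of 0.237. Mrpl23 read 9.37, 10.55 and 9.37 after DMSO and 10.80, 11.13 and 10.51 after rapamycin, and DMSO replicate 2 lay above 1 of the rapamycin arrays. Without that DMSO replicate 2, 37 members passed, 36 higher and 1 lower, where 16.2% of all rows then passed; leaving out any other array gave 0. The members' median was 0.52 without it and 0.18 without DMSO replicate 3. Both arrays numbered 2, each the highest of its group for the members, were also left out. Then 27 members passed, 26 higher and 1 lower, where 8.55% of all rows passed, and the median was 0.43. This fit was chosen after the data were seen. Of the members followed throughout, Mrps12 stood at 0.12 in polysomal and 0.68 in total RNA, Mrps18c at -0.08 and 0.57, Mrps22 at -0.38 and 0.16 and Mrpl12 at -0.36 and 0.11, none past the threshold. The interaction in refed liver had a median of -0.40 against -0.05 over all rows, with 67 of 68 values negative against 56.9% of all rows. By limma 0 members passed (0.00% of all rows), and 8 had an unadjusted p under 0.05 (11.8%, against 2.45% of all rows). The median was -0.61 without refed total DMSO replicate 2, -0.30 without rapamycin replicate 2 and -0.48 without both. Those with the smallest p were Mrps14 (-0.75), Mrpl50 (-1.01) and Mrps18c (-0.65). Cytosolic ribosomal proteins had medians of -0.27 in polysomal and 0.27 in total RNA of the same livers, and an interaction median of -0.59.

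In fetal liver 0 members passed in polysomal RNA and 0 in total RNA by limma, where 0.00% of all rows passed in either; 4 and 1 had an unadjusted p under 0.05 (5.88% and 1.47%, against 2.27% and 1.83% of all rows), and the medians were -0.06 and -0.09, against -0.03 and -0.02 over all rows. The smallest p-values were those of Mrps27 (-0.42), Mrpl38 (-0.27) and Mrpl42 (-0.21) in polysomes and Mrps18a (-0.28), Mrpl49 (-0.29) and Mrps14 (-0.30) in total RNA, all with an adjusted p of 1. In polysomes the groups did not overlap in 4 members, all lower, Mrpl38 and Mrpl42 among them. These were 5.88% of members, against 1.74% of all rows. In total RNA the groups overlapped in every member, while 0.967% of all rows did not overlap. Mrps27 read 9.71, 10.01, 10.10 and 9.82 in DMSO polysomes and 9.44, 9.35, 9.86 and 9.32 after rapamycin. The groups overlapped, and in each of the 4 pairs of the same number the rapamycin array was lower, with differences of -0.28, -0.66, -0.24 and -0.51. Without fetal total rapamycin replicate 1, the low array, the median in total RNA was 0.04. The interaction gave 0 members, where 0.00% of all rows passed, with a median of 0.03. An unadjusted p under 0.05 was reached by 0 members, against 0.414% of all rows. The smallest p-values were those of Mrps2 (-0.23), Mrpl4 (-0.25) and Mrpl19 (0.30). Among the members followed throughout, Mrps12 stood at -0.10 in polysomal and -0.16 in total RNA, Mrps22 at -0.25 and -0.18, Mrpl12 at 0.09 and -0.05 and Mrps28 at 0.13 and 0.19.

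The effect of rapamycin was then set against the same effect in another model. In total RNA it differed between regenerating and refed liver for 1 member, Mrps18c (-0.95 ± 0.223, adjusted p = 0.04), where 0.516% of rows differed. Mrps18c read 10.62, 10.92 and 10.91 after DMSO and 10.23, 10.62 and 10.49 after rapamycin in regenerating liver, groups that only just failed to overlap. In refed liver it read 10.13, 10.41 and 9.59 after DMSO and 10.40, 10.86 and 10.59 after rapamycin, and those overlapped. The members' median difference between the models was -0.55 against -0.05 over all rows, with 66 of 68 negative against 55.3% of all rows. The call on Mrps18c was lost, and 0 members passed, with no filter, with cyclic loess and with only the groups compared in the fit. Without refed total DMSO replicate 2 the count was 36 members (10.5% of all rows) and the median -0.72, and without both refed total arrays numbered 2 it was 20 (4.65% of all rows) and -0.62. It was 7 without regenerating rapamycin replicate 2, 4 without regenerating DMSO replicate 1, 3 without refed rapamycin replicate 1 and 0 without any 1 of the other 8 arrays. For total RNA between regenerating and fetal liver 0 members passed, where 0.00921% of all rows passed. An unadjusted p under 0.05 was reached by 5 members (7.35%), against 6.11% of all rows. For polysomal RNA 0 passed between regenerating and refed and 0 between regenerating and fetal liver, where 0.120% and 0.00921% of all rows passed. There 3 and 2 members (4.41% and 2.94%) had an unadjusted p under 0.05, against 4.75% and 6.53% of all rows. The smallest p-values against fetal liver were those of Mrpl38 (-0.51), Mrps27 (-0.61) and Mrps22 (-0.58) in total RNA and Mrps9 (-0.42), Mrps22 (-0.48) and Mrps25 (-0.38) in polysomal RNA, and against refed polysomal RNA those of Mrpl13 (-0.59), Mrpl37 (-0.36) and Mrps25 (-0.46). The members lowered in regenerating liver were thus not shown to differ in their response from fetal liver.

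Levels in total RNA of the DMSO livers were compared between models. Regenerating liver had 13 members higher than refed liver and 0 lower, where 17.5% of rows passed, 12.4% higher and 5.03% lower, and the median was 0.29 against 0.02. The 8 with the smallest p were Mrps21 (0.72), Mrpl54 (0.93), Mrps18c (0.78), Mrps11 (0.73), Mrps12 (1.14), Mrpl13 (0.69), Mrpl23 (0.81) and Mrpl37 (0.39). Mrps12 read 11.35, 11.61 and 11.66 in regenerating liver and had a mean of 10.40 ± 0.52 (SD, n = 3) in refed liver, without overlap (adjusted p = 0.00315). With only the 2 groups compared in the fit 1 member passed. Without refed DMSO replicate 2 the count was 36, 34 higher and 2 lower, where 26.6% of all rows passed, and the median was 0.46. The count was 6 without refed DMSO replicate 1 or 3, 7 without regenerating replicate 2 and 5 without regenerating replicate 3. Markers of dividing cells were at 10.38 to 11.03 in regenerating and 6.05 to 6.16 in refed total DMSO RNA, and their part in the result was not tested.

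Fetal liver had 20 members higher and 3 lower than refed liver, where 47.1% of rows differed and 28.1% were higher, and the median was 0.21 against 0.04. The smallest p was that of Mrpl23, whose bacterial homologue sits at the tunnel exit: it read 11.36, 11.41, 11.90 and 11.94 in the fetus and 9.37, 10.55 and 9.37 in refed liver. The groups were apart, by 1.89 ± 0.216 (adjusted p = 8.56e-09), or 3.70-fold. Mrpl54 (0.91), Mrps21 (0.63), Mrps27 (0.71), Mrpl21 (0.77), Mrps17 (0.95), Mrps24 (0.74) and Mrpl45 (0.73) followed in order of p. The 3 lower members were Mrps2 (-0.75), Mrps18b (-0.61) and Mrps28 (-0.48). Mrps2 read 11.22, 11.16, 11.19 and 10.82 in the fetus and 11.74, 11.70 and 12.09 in refed liver, with every fetal array below every refed one. Without refed DMSO replicate 2 the count was 36, 33 higher and 3 lower, where 47.8% of all rows passed, and the median was 0.41; without replicate 3 the median was 0.08. With only the 2 groups compared in the fit 11 members passed.

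Against regenerating liver, fetal liver had 2 members higher, Mrpl23 (1.08) and Mrpl3 (0.85), and 12 lower. Among all 10860 rows tested 36.9% differed, with 19.9% higher and 1847 rows lower. The share of lower calls was thus similar in members and in all rows, and these shares were not tested against each other. The members' median was -0.03 against 0.04 over all rows. The lower members with the smallest p were Mrps11 (-0.70), Mrpl38 (-0.44), Mrpl42 (-0.34), Mrps2 (-0.41), Mrps34 (-0.62), Mrps18b (-0.49), Mrpl55 (-0.47) and Mrpl10 (-0.39). Mrps11, a small-subunit protein with a bacterial homologue, read 10.23, 10.31, 9.96 and 10.04 in the fetus and 10.79, 10.88 and 10.83 in regenerating liver. The 2 groups were apart. The count was 5 without regenerating replicate 2 and 9 without regenerating replicate 3, with no filter or with only the 2 groups compared in the fit. In fetal total DMSO RNA 6 granulocyte markers averaged 10.83 to 11.29 and 4 fetal hepatocyte markers 13.36 to 13.92. In adult total DMSO RNA they averaged 5.87 to 6.27 and 8.02 to 8.46. The part of these cell types in the differences was not tested. Of the members followed throughout, Mrps18a (-0.32) and Mrps12 (-0.65) were also lower in fetal than in regenerating liver, and Mrps18c (0.57) and Mrps22 (0.38) were higher in fetal than in refed liver.

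**Figure D5:**
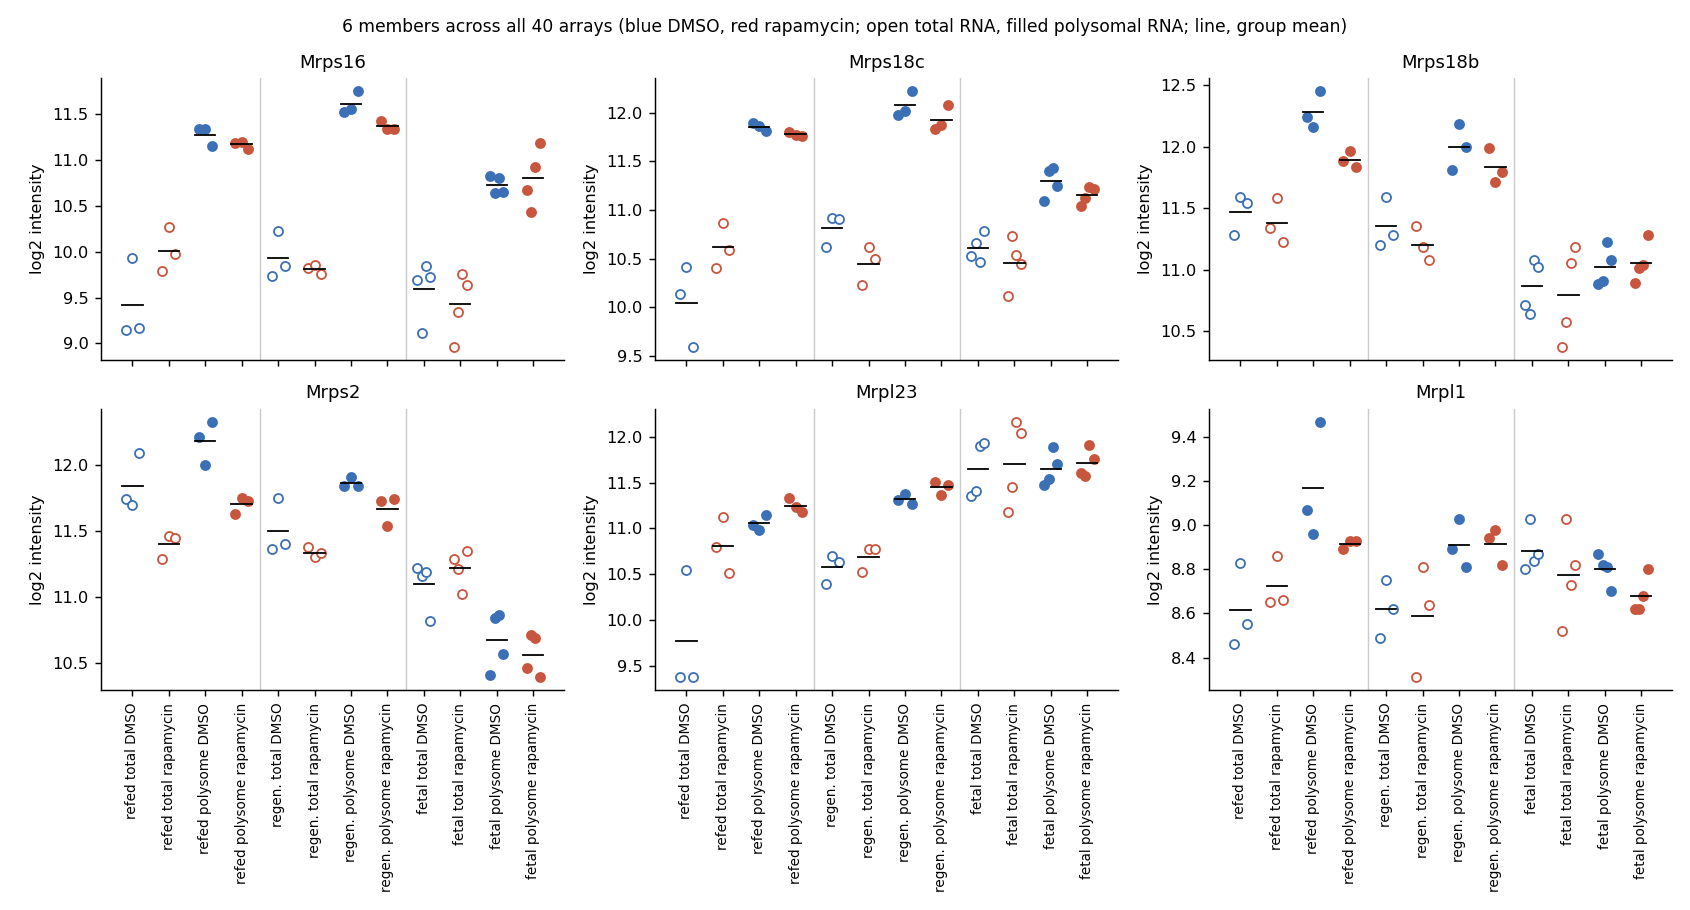
Log2 intensity (y axis) on every array in the 12 groups (x axis) for Mrps16, Mrps18c, Mrps18b, Mrps2, Mrpl23 and Mrpl1; open circles are total RNA, filled circles polysomal RNA, blue DMSO, red rapamycin, black lines group means. Mrps16 is high in polysomes of all 3 models, Mrps2 is lower in fetal polysomes than in fetal total RNA, Mrpl23 is at 9.37 in 2 of the 3 refed total DMSO arrays, and Mrpl1 has the narrowest range of group means (0.58).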

How the data were processed

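Each of the 40 arrays had 1 colour. The authors deposited 1 linear array intensity per transcript row; RMA, a normalization that corrects background, matches the distributions of all arrays and combines probes, is named in the submitters' processing notes, without version or settings. RMA equalises array totals, so a shift common to all mRNAs cannot be seen. The deposited intensities were turned into log2 here, with no pseudocount; array medians were 7.09 to 7.40. No 2 arrays were identical (smallest root mean square difference 0.195). Precision is set by the number of arrays.

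Of 28826 rows, 15209 had 1 symbol, 306 several and 13311 none here. The 10860 rows tested had 1 or more symbols and a mean log2 no lower than 6.7, the 30th percentile among rows with a symbol. All 68 members matched the RefSeq GRCr8 gene table by Entrez number with unchanged symbols. 4 members had 2 rows (Mrps11, Mrpl40, Mrpl41, Mrpl42). Comparisons were fitted with limma 3.58.1 in R 4.3.3 (eBayes with a trend in intensity; tests were two-sided), with Benjamini-Hochberg adjustment over all rows tested and a threshold of 0.05. A fit inside 1 model held the arrays of that model, and a fit across models held all 40. Errors are standard errors of the fit. The fit was tested on simulated data in 3 comparisons. These were the refed polysomal excess, rapamycin in regenerating polysomal RNA and the polysomal excess in fetal against regenerating liver. In each, 100 of 10860 rows were given a true log2 difference of 0.5 and 100 one of 1. A difference of 0.5 was recovered in 17%, 40% and 11% of changed rows, and one of 1 in 63%, 88% and 58%. Many simulated differences of 0.5 were thus missed. Recovery after adjustment depends on the share of rows that change. In the data that share can be larger, with 24.7% of rows past the threshold for the refed polysomal excess, so these rates do not carry over.

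Polysomal and total arrays of the same number in a model and treatment deviated together (correlations of 0.33 to 0.82 over all pairs), so the liver was taken as pairing the fractions. Fetal DMSO and rapamycin arrays of the same number also did (0.42 to 0.75). In the fetus these correlations alone therefore cannot show that the fractions of a number share a liver.

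The members, gene lists, markers and motifs were chosen with earlier results of these data known. Genes were named by a rule: up to 8 members each way by smallest p among those past the threshold (4 in comparisons of differences), otherwise 3 as values, the widest and narrowest ranges, and 8 genes followed throughout: Mrps18a, Mrps18b, Mrps18c, Mrps12, Mrpl12, Mrps22, Mrps30 and Mrps28. From the other lists it took up to 3 past the threshold, smallest p first, or 2 as values. Members that missed the threshold for the polysomal excess, and a few further genes of the other lists, were named after their values were seen. Alternatives were no filter, cyclic loess, another set of arrays in the fit, the replicate block, the second row of a gene, each array left out and, added later, both refed total arrays numbered 2 left out. Scanner files were not used here, so background correction and slide were not varied.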

Additional observations from a re-analysis of the deposited data

Results flagged for a closer look

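In groups of 4 arrays, 196 checks of members and of their mean asked whether 1 array lay far from the other 3, and 7 did; chance gives about 1 in 20. Mrps17 in fetal polysomal DMSO replicate 3 was at 10.62, with the others at 10.45 to 10.47. Mrps9 in fetal polysomal DMSO replicate 1 was at 9.35, with the others at 9.06 to 9.09. In fetal polysomal rapamycin replicate 3, Mrpl4 was at 11.58 (others 11.10 to 11.17) and Mrps24 at 11.77 (others 11.60 to 11.63). In fetal total DMSO RNA, Mrpl19 was at 9.44 in replicate 3 (the lowest at 8.97), Mrpl42 at 12.36 in replicate 2 (others 12.57 to 12.59) and Mrps2 at 10.82 in replicate 4 (others 11.16 to 11.22).

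For 6 members a difference between models itself passed the test. The polysomal excess was smaller in fetal than in regenerating liver for Mrpl4 (-0.91), Mrpl40 (-0.94), Mrpl48 (-0.77), Mrpl55 (-0.87) and Mrps2 (-0.79). The effect of rapamycin on total RNA was lower in regenerating than in refed liver for Mrps18c (-0.95), a call lost with no filter, with cyclic loess and with only the groups compared in the fit.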

How the results depend on the processing

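The counts of members with a polysomal excess in refed and regenerating liver stayed within 1.5 times of 64 and 62 in every alternative run, the lowest being 57 and 56. Cyclic loess lowered the members' median excess from 1.00 to 0.78, from 0.77 to 0.62 and from 0.42 to 0.35. The other counts moved more, and the cause was not tested. With all 40 arrays in 1 fit, 5 members passed for rapamycin in refed total RNA, 2 in regenerating polysomal and 3 in regenerating total RNA. With no filter the counts were 3 in regenerating polysomal and 4 in regenerating total RNA, 9 for fetal against regenerating liver, 3 for the fetal against regenerating polysomal excess and 0 for the rapamycin effect in total RNA between regenerating and refed liver. Cyclic loess gave 4 in regenerating total RNA and 0 for that last effect. With only the groups compared in the fit they were 1 for regenerating against refed liver, 11 for fetal against refed, 9 for fetal against regenerating, 3 for the polysomal excess between fetal and regenerating liver and 0 for the rapamycin effect between regenerating and refed total RNA.

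With each array left out in turn, counts ran from 0 to 37 (rapamycin, refed total RNA), 0 to 16 and 0 to 17 (regenerating polysomal and total RNA), 57 to 65, 57 to 63 and 18 to 25 (polysomal excess in refed, regenerating and fetal liver), 5 to 36, 16 to 36 and 5 to 13 (regenerating against refed, fetal against refed, fetal against regenerating), 0 to 1 and 1 to 7 (polysomal excess, regenerating against refed and fetal against regenerating) and 0 to 36 (rapamycin in total RNA, regenerating against refed). The other counts of 0 stayed at 0. Leaving out both refed total arrays numbered 2, an alternative chosen after seeing the data, gave 27 members for rapamycin in refed total RNA, 20 for rapamycin in total RNA between regenerating and refed liver and 0 for the refed interaction. Values near 0 of members followed throughout, none past the threshold, changed sign in some of these fits. For rapamycin these were Mrps28 (-0.42 to 0.02) and Mrpl12 (-0.02 to 0.34) in refed total RNA, Mrps30 (-0.23 to 0.02) and Mrps28 (-0.13 to 0.11) in regenerating polysomal RNA, Mrps18b (-0.04 to 0.10), Mrps12 (-0.29 to 0.10) and Mrpl12 (-0.04 to 0.21) in fetal polysomal RNA, and Mrps12 (-0.35 to 0.01), Mrpl12 (-0.18 to 0.10), Mrps30 (-0.15 to 0.14) and Mrps18b (-0.21 to 0.07) in fetal total RNA. For the refed polysomal excess it was Mrps28 (-0.02 to 0.42). Between models these were Mrpl12 (-0.15 to 0.20) and Mrps18a (-0.10 to 0.23) for fetal against refed and Mrps28 (-0.11 to 0.03) and Mrps22 (-0.22 to 0.05) for fetal against regenerating liver. Cyclic loess turned Mrps18a to 0.01 for rapamycin in refed polysomal RNA and to -0.03 for fetal against refed liver.

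With the liver or the replicate number as a block, the polysomal excess between fetal and regenerating liver held for 15 members in place of 5, and no other count moved by over 1.5 times in the comparisons where numbers pair arrays. DMSO and rapamycin arrays of the same number in adults did not deviate together (correlations from -0.62 to 0.39), nor did DMSO total arrays of the same number across models (-0.16 to 0.21); the block there gave 12 members in place of 1 for rapamycin in total RNA between regenerating and refed liver, 7 in place of 9 in regenerating total RNA and 19 in place of 13 for regenerating against refed liver. The second row of Mrps11 fell past the threshold after rapamycin in regenerating total RNA (-0.49 against -0.25), and that of Mrpl42 was not past it for the excess in regenerating (0.17 against 0.64) or fetal liver (0.25 against 0.52).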
